A study of Mus musculus with 6 samples.

Results

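The p53-linked miR-34 and miR-449 family was examined in mouse embryonic stem cells (ESCs) through 6 mature miRNAs, mmu-miR-34a-5p, mmu-miR-34b-5p, mmu-miR-34b-3p, mmu-miR-34c-5p, mmu-miR-34c-3p and mmu-miR-449a-5p. They were picked by name from a table of 1907 mature miRNAs, of which 1233 had at least 1 count. Small RNA was sequenced from the C57BL/6 ESC lines RB18 and RB20, each grown feeder free in serum, 2i or R2i, giving 6 libraries with 2 per medium. All 3 media held 1000 U/ml of the self-renewal cytokine LIF. Serum medium held 15% fetal bovine serum. The 2i and R2i media were serum free and held 1 µM of the MEK inhibitor PD0325901, to which 2i added 3 µM of the GSK3 inhibitor CHIR99021 and R2i added 10 µM SB431542, which blocks TGF-β receptors. Both lines had been derived in R2i and were moved to 2i or serum for at least 10 passages, so each medium holds the same 2 lines. For each library 3 independently grown cultures were pooled, so 2 libraries of the same medium differ by line, pool and sequencing together. Counts assigned to miRNAs totalled 1744187 (RB18) and 2243369 (RB20) in serum versus 2057602 and 3365676 in 2i and 1041858 and 3593356 in R2i.

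miRNAs are short RNAs that lower the output of the mRNAs they pair with, mainly through the seed, bases 2 to 8 from the 5′ end. The miR-34 genes are known as direct transcriptional targets of the tumour suppressor p53, and their products restrain cell cycle and survival genes. miR-34a is transcribed alone, whereas miR-34b and miR-34c come from 1 shared transcript. The miR-449 genes carry the same seed as miR-34 and are best known from multiciliated cells. In ESCs, miR-34a has been linked to limits on cell fate potential, and miR-34 loss is known to ease reprogramming to pluripotency. Each hairpin can yield a 5p and a 3p product with different seeds.

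RefSeq sequences (GRCm38.p6) matched 5 of the 6 members by name, all but miR-34c-5p. They are shown because the products fall into separate seed groups, with the seed in capitals. The first group holds the seed GGCAGUG, together with miR-449c-5p from the gene next to miR-449a. Of 1679 mature miRNAs in the RefSeq table, 4 have this seed, and all 4 are in the count table. miR-34c-5p and miR-449b are in the count table but have no mature entry there. Their seeds were therefore not read, and the group may be larger than these 4.
miR-34a-5p: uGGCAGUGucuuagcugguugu
miR-34b-5p: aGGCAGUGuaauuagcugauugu
miR-449a-5p: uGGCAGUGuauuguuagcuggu
miR-449c-5p: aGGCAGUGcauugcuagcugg
The 3p products of miR-34b and miR-34c share another seed, AUCACUA, which no other mature miRNA of the RefSeq table holds.
miR-34b-3p: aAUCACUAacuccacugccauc
miR-34c-3p: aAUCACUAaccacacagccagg
Position by position from the 5′ end, miR-34a-5p and miR-449a-5p were identical at 15 of 22 bases, miR-34a-5p and miR-34b-5p at 11 of 22, and miR-34b-3p and miR-34c-3p at 17 of 22. The mismatches allowed in the alignment are not given in the sources used here, so sharing of reads between these products was not tested.

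On GRCm38, Mir34a lies at chr4:150068454-150068555 on the plus strand, where its 3′ end meets the first bases of Gm37795, a gene model of GENCODE M21 still to be experimentally tested. Mir34b lies at chr9:51103562-51103645 on the minus strand, inside an intron of Btg4 on the opposite strand. The mature miR-34c-3p also lies in an intron of Btg4, at chr9:51103044-51103065, with 508 bases between it and miR-34b-3p. Mir449a (chr13:113037534-113037624) and Mir449c (chr13:113035983-113036091) lie on the plus strand inside introns of Cdc20b, with 1442 bases between them. The Mir34b hairpin is shown with its 5p and then its 3p product in capitals, since the arms differed in abundance.
Mir34b: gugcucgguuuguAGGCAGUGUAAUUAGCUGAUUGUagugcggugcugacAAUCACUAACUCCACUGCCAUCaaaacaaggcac

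The labelled cell type was checked first. A list of 12 ESC miRNAs, chosen from the larger set of products of the miR-290 and miR-302 clusters, had counts in every library for all 12, and together these took 38.3% and 26.9% of counts in serum (RB18 and RB20), 37.7% and 35.1% in 2i, and 39.1% and 37.3% in R2i, with miR-295-3p the most abundant. edgeR called 1 of these 12 higher in 2i and 4 higher in R2i against serum, beside 16.8% and 15.1% of all tested miRNAs, and 0 lower in either. With p left unadjusted and under 0.05, the counts were 3 higher and 1 lower in 2i, 4 higher and 0 lower in R2i. Over all 571 tested miRNAs they were 163 higher and 166 lower in 2i, and 130 higher and 153 lower in R2i. DESeq2 called 3 higher in 2i, 4 higher in R2i and 0 lower. The 6 family members together took 0.330% and 0.270% of counts in serum versus 0.144% and 0.121% in 2i and 0.267% and 0.194% in R2i. The family share was thus lowest in both 2i libraries, and the R2i libraries lay below the serum library of the same line. These are levels in bulk RNA, in which fewer cells of a type and less RNA per cell cannot be told apart.

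miR-34a-5p, the single-gene product and the main p53-linked member in many tissues, was the most abundant member in every library. It reached 2466 CPM (counts per 1000000 counts of the library) in RB18 and 1748 in RB20 in serum versus 1266 and 1101 in 2i and 2056 and 1611 in R2i, ranking between 45 and 71 among all miRNAs. The 2i libraries were the lowest pair, while the R2i values overlapped those of serum on this scale. On TMM-scaled CPM, the scale of the tests, they did not overlap, with 2354 and 1943 in serum against 1837 and 1656 in R2i. miR-34c-5p, from the shared miR-34b/c transcript, was second in every library. Its level was 768 and 881 CPM in serum versus 152 and 99.2 in 2i and 534 and 295 in R2i. All 3 media were separated without overlap, with serum highest and 2i lowest.

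The partner products of the shared transcript were scarce. miR-34b-3p stood at 36.1 and 29.0 CPM in serum (63 and 65 counts), 4.86 and 3.86 in 2i (10 and 13 counts), and 18.2 and 7.24 in R2i (19 and 26 counts), again with no overlap between media. miR-34b-5p had 19 and 21 counts in serum (10.9 and 9.36 CPM), 1 and 2 counts in 2i (0.486 and 0.594 CPM), and 15 and 17 counts in R2i (14.4 and 4.73 CPM). It was near the limit of detection in 2i only, where 3 counts correspond to 1.46 CPM in RB18 and 0.891 CPM in RB20, and its R2i values spanned those of serum. miR-34c-3p had 18 and 20 counts in serum (10.3 and 8.92 CPM), 7 and 1 in 2i (3.40 and 0.297 CPM) and 5 and 10 in R2i (4.80 and 2.78 CPM). Serum was the highest pair, and the 2i and R2i values overlapped. Counts are reads and not molecules, so the counting intervals and limits cover counting error only, and the p-values rest on at most 2 libraries per medium. Where 1 library was left out, its medium had 1, and the interaction below has 1 library per medium and line.

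miR-449a-5p followed another order. It had 16 and 43 counts in serum (9.17 and 19.2 CPM), 29 and 26 in 2i (14.1 and 7.73 CPM), and 46 and 78 in R2i (44.2 and 21.7 CPM). The R2i libraries were the highest pair, and serum and 2i overlapped.

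**Figure D1:**
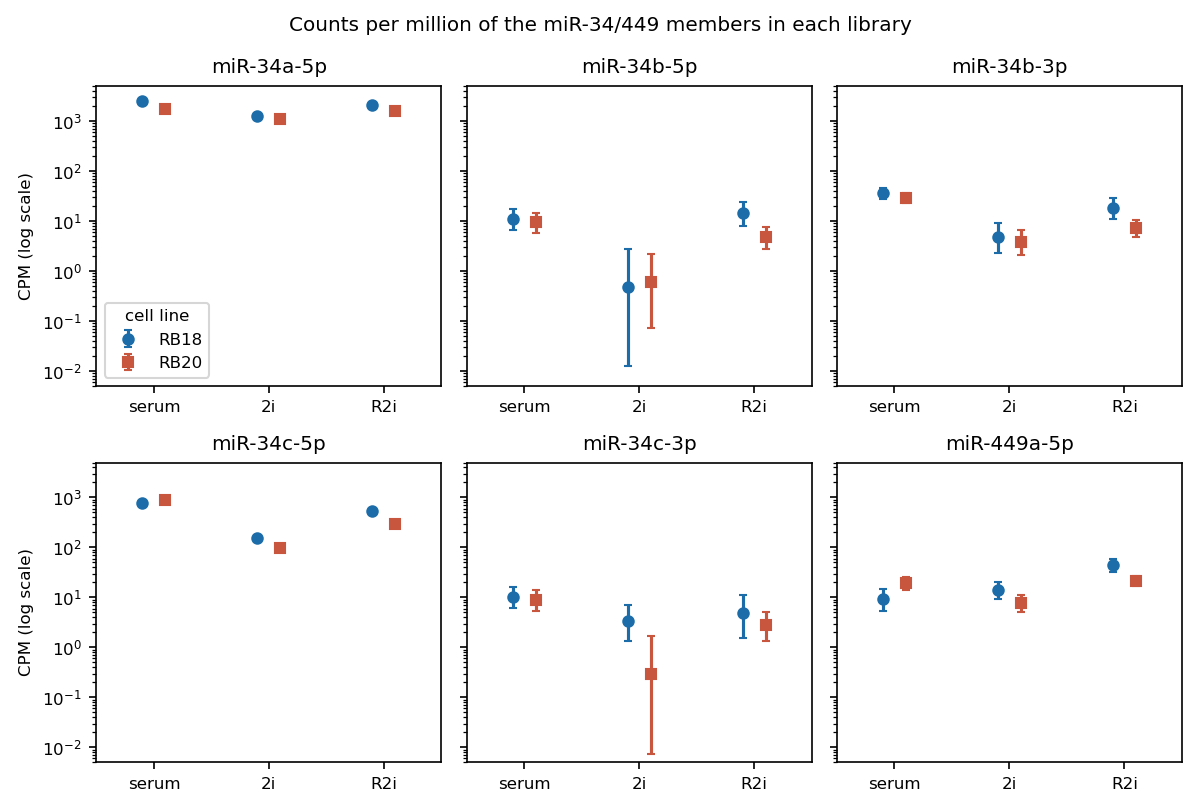
Level of each member in CPM on a log axis, by medium and cell line (circles RB18, squares RB20), with 95% exact Poisson intervals for counting error. The miR-34b and miR-34c products have their lowest pair of values or their lowest single value in 2i, whereas miR-34a-5p stays above 1000 CPM in all 6 libraries and miR-449a-5p is highest in R2i.

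Within serum, the mean levels ran from miR-34a-5p (2107 ± 508 CPM, SD, n = 2) over miR-34c-5p (825 ± 79.9) and miR-34b-3p (32.5 ± 5.05) to miR-449a-5p (14.2 ± 7.07), miR-34b-5p (10.1 ± 1.08) and miR-34c-3p (9.62 ± 0.993). The last 3 did not differ beyond their spread. In 2i, miR-34a-5p (1183 ± 117) and miR-34c-5p (126 ± 37.4) kept the lead, followed by miR-449a-5p (10.9 ± 4.50), miR-34b-3p (4.36 ± 0.705), miR-34c-3p (1.85 ± 2.20) and miR-34b-5p (0.540 ± 0.0765), of which the last 2 overlapped. In R2i, the order was miR-34a-5p (1834 ± 314), miR-34c-5p (414 ± 169), miR-449a-5p (32.9 ± 15.9), miR-34b-3p (12.7 ± 7.78), miR-34b-5p (9.56 ± 6.84) and miR-34c-3p (3.79 ± 1.43). There miR-449a-5p stood above miR-34b-3p in both libraries, and the ranges overlapped between miR-34b-3p and miR-34b-5p and between miR-34b-5p and miR-34c-3p. Levels of different miRNAs also reflect ligation and amplification bias, so the order holds for counts.

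For the comparison of 2i with serum, which asks what the GSK3 and MEK inhibitor medium changes against serum culture, 3 of the 6 members fell and none rose. The products that fell were miR-34c-5p, miR-34b-3p and miR-34b-5p, all from the shared miR-34b/c transcript. A miRNA was called at an adjusted p under 0.01 and more than 2-fold in edgeR's quasi-likelihood test with Benjamini-Hochberg adjustment over the 571 miRNAs that passed the filter on low counts. All 6 members passed it, although miR-34c-3p had at least 10 counts in both libraries in serum only. It thus entered the test through the medium where it is high. miR-34b-5p, with 1 and 2 counts in 2i, likewise entered through serum and R2i, where it is higher. The filter is set on CPM, and miR-34b-3p, at 4.86 and 3.86 CPM in 2i, met it in both libraries of serum and of R2i but not of 2i. Its entry thus also rests on media where it is higher. Calls of these miRNAs, and counts and medians that include any of them, are given as a description only. Of all tested miRNAs, 17.3% were called lower and 16.8% higher in 2i, against 3 and 0 of the 6 members. For the count of 0 members called higher by edgeR, 0 were also higher at an unadjusted p under 0.05 and 0 by DESeq2. The median log2 fold change was -2.68 over the members and -0.03 over all tested miRNAs.

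miR-34c-5p was 4.82-fold lower in 2i than in serum in RB18 and 9.61-fold lower in RB20 on TMM-scaled CPM, with an edgeR log2 fold change of -2.76 (SE 0.35, adjusted p = 0.000370), and it passed in all 14 alternative fits. miR-34b-3p was 7.10-fold and 8.12-fold lower (log2 fold change -2.92, SE 0.43, edgeR adjusted p = 0.000832). Its call was lost without the 2i library of RB20 (adjusted p = 0.0101, edgeR). miR-34b-5p had a log2 fold change of -4.09 (SE 0.76, edgeR adjusted p = 0.00282), which rests on 3 counts in 2i against 40 in serum and depends on the prior count. Pooled over lines, these counts give a serum to 2i ratio of 18.1 with an exact 95% counting interval from 5.78 to 91.6. Limma on the deposited log2 values gave -3.40, and the call was lost in edgeR, with an adjusted p of 0.0149 without the serum library of RB18, 0.0185 without that of RB20, 0.0187 without 2i RB18 and 0.0236 without 2i RB20.

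The other members did not pass in 2i. miR-34c-3p had a log2 fold change of -2.60 (SE 0.80, edgeR adjusted p = 0.0274), and its 2i libraries stood apart, with 7 counts in RB18 and 1 in RB20. Pooled over lines, 38 counts in serum against 8 in 2i give a ratio of 6.46, with an exact 95% counting interval from 2.97 to 16.0. It passed without the 2i library of RB18 (log2 fold change -4.78, edgeR adjusted p = 0.00670) and, over all libraries, with no filter on low counts (-2.53, adjusted p = 0.000796), within a range of 0.000796 to 0.135 over its alternatives. Without the 2i library of RB20 the log2 fold change was -1.52 (adjusted p = 0.135). miR-34a-5p was lower in 2i in both lines, 1.86-fold in RB18 and 1.72-fold in RB20, with a log2 fold change of -0.84 (95% interval -1.38 to -0.31, edgeR adjusted p = 0.0174), under the 2-fold limit. miR-449a-5p had a log2 fold change of -0.49 (95% interval -1.72 to 0.74, edgeR adjusted p = 0.474), which changed sign to 0.29 without the serum library of RB20. At an adjusted p under 0.05 in edgeR with no fold limit, 5 of the 6 members were lower, miR-34c-3p among them, and 26.1% of all tested miRNAs, a count from which nothing is read.

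For R2i against serum, where MEK inhibition is joined by block of TGF-β receptors, 0 members passed the edgeR call in either direction, while 15.6% of the 571 miRNAs were called lower and 15.1% higher. At an unadjusted p under 0.05, 2 members were lower (26.8% of all tested miRNAs) and 0 higher, and DESeq2 called 1 lower, miR-34c-5p (adjusted p = 0.00779, with 0.00238 to 0.164 over its alternatives), and 0 higher. At an adjusted p under 0.05 with no fold limit, 2 of 6 were lower in edgeR, against 22.2% of all. These were miR-34b-3p, with a log2 fold change of -1.61 (95% interval -2.55 to -0.68, edgeR adjusted p = 0.0136), and miR-34c-5p, with -1.14 (95% interval -1.91 to -0.37, edgeR adjusted p = 0.0256). miR-34b-3p met the limits of the call without the R2i library of RB18 (adjusted p = 0.00848), with no filter on low counts (0.000658) and with the block and library totals (0.00916), all in edgeR. Over its 14 alternative fits the adjusted p ranged from 0.000658 to 0.0892 and the log2 fold change from -2.18 to -1.03.

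Line by line, miR-34b-3p was 2.12-fold lower in R2i in RB18 and 4.33-fold lower in RB20, and miR-34c-5p was 1.54-fold and 3.23-fold lower. The log2 fold change was -0.30 for miR-34a-5p (adjusted p = 0.340), -0.39 for miR-34b-5p (adjusted p = 0.608) and -1.55 for miR-34c-3p (adjusted p = 0.130), all in edgeR. For miR-34b-5p it turned to 0.30 without the R2i library of RB20. miR-449a-5p was the member with a positive value, 0.98 (95% interval -0.20 to 2.15, edgeR adjusted p = 0.162). Its level was 4.50-fold higher in R2i in RB18 and 1.05-fold higher in RB20. With each library left out in turn, its log2 fold change ranged from 0.55 to 1.76. The median log2 fold change was -0.77 over the members and -0.07 over all tested miRNAs. Both comparisons use the same serum libraries.

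**Figure D2:**
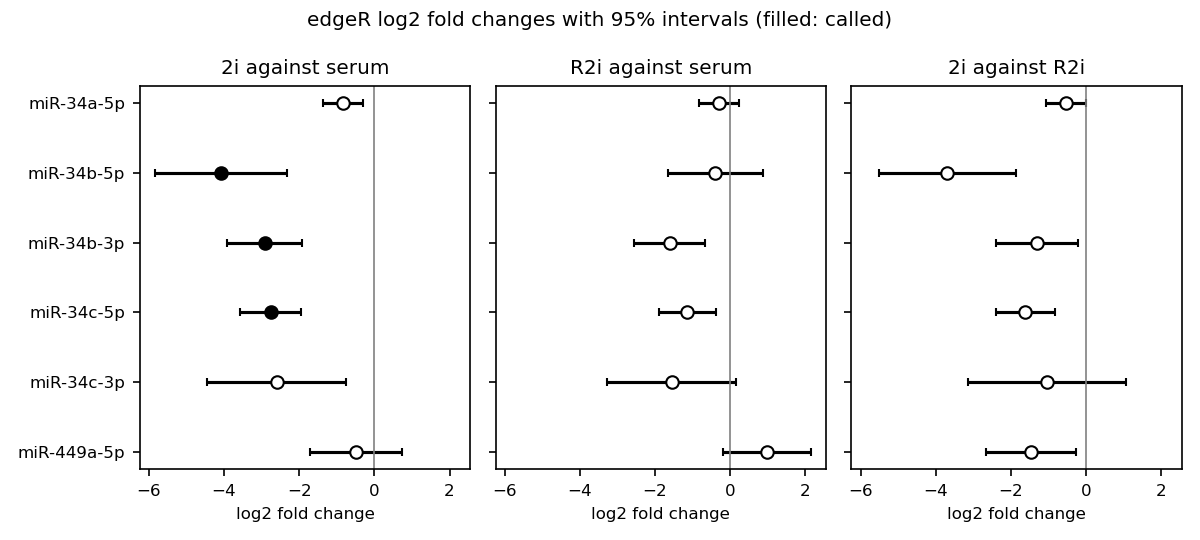
edgeR log2 fold changes of the 6 members with 95% intervals in 3 comparisons, with filled points for values past the call limits. In 2i against serum, 3 values are filled, from -4.09 to -2.76, and in the other comparisons none is.

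The direct comparison of the ground-state media asks whether their inhibitor pairs leave different miRNA levels. All 6 members had negative log2 fold changes in 2i against R2i, and 0 passed the edgeR call, which also held for all but 2 of the 571 tested miRNAs (0% were called lower and 0.350% higher, the latter being miR-211-3p and miR-211-5p, named after their values were seen). At an unadjusted p under 0.05, 5 of the 6 members were lower, against 10.7% of all tested miRNAs, and DESeq2 called 1 lower, miR-34c-5p (adjusted p = 9.34e-05, the lowest of its alternatives, which reached 0.405). In edgeR, the log2 fold change was -1.62 for miR-34c-5p (95% interval -2.40 to -0.83, adjusted p = 0.0714) and -3.70 for miR-34b-5p (95% interval -5.52 to -1.87, adjusted p = 0.0714). It was -1.47 for miR-449a-5p (adjusted p = 0.197), -1.31 for miR-34b-3p (adjusted p = 0.197), -1.04 for miR-34c-3p (adjusted p = 0.598) and -0.54 for miR-34a-5p (adjusted p = 0.270), again in edgeR.

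Between lines, the ratio of R2i to 2i was close for 3 members. It was 3.14 in RB18 and 2.98 in RB20 for miR-34c-5p, 2.80 and 2.81 for miR-449a-5p, and 1.45 and 1.46 for miR-34a-5p. For miR-34b-3p the lines differed more, with 3.35 and 1.87. miR-34b-5p had 1 and 2 counts in 2i, and its pooled ratio was 12.5 (exact 95% counting interval 3.90 to 63.7). Its log2 fold change in 2i against R2i was -2.97 without R2i RB18 and -4.38 without R2i RB20. For miR-34c-3p, with 1 to 10 counts in these libraries, the log2 fold change turned to 0.03 without the 2i library of RB20. The median log2 fold change was -1.39 over the members and 0.01 over all tested miRNAs. An effect past the limits in 2i and not in R2i is thus not shown to differ between them by this test for any member.

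**Figure D3:**
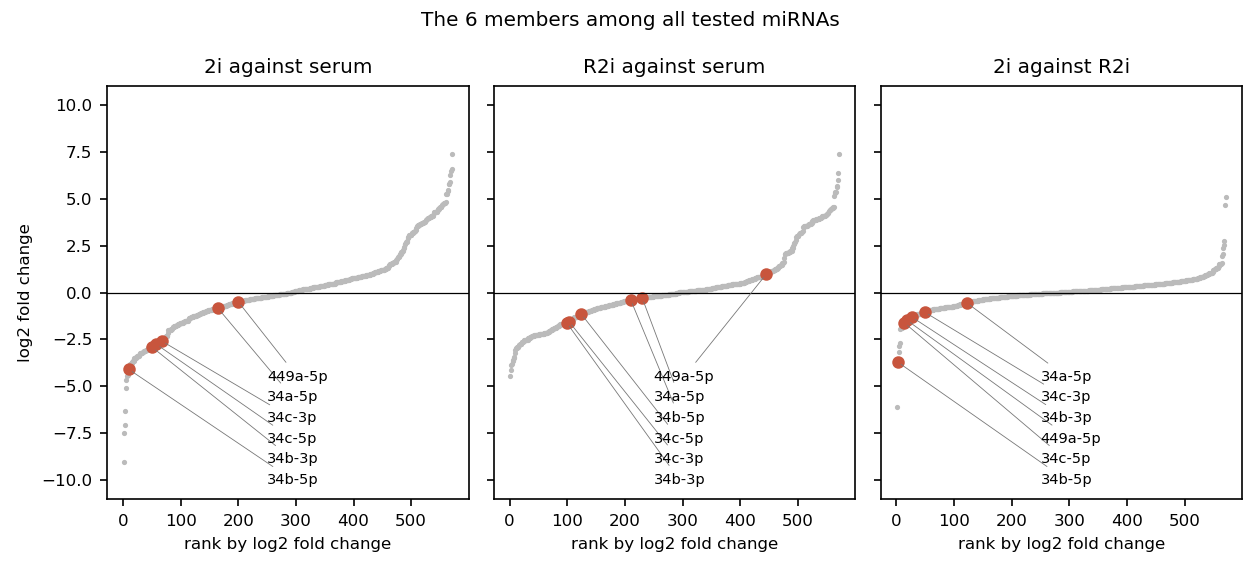
All 571 tested miRNAs ordered by edgeR log2 fold change in each comparison (grey), with the 6 members in red. The members lie at ranks 10 to 200 from the lowest in 2i against serum, 99 to 445 in R2i against serum and 2 to 122 in 2i against R2i.

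With 2i and R2i averaged as the ground state and set against serum, 3 of the 6 members fell and 0 rose, beside 20.0% and 17.0% of all tested miRNAs called lower and higher. For the 0 members called higher by edgeR, the count was 0 at an unadjusted p under 0.05 and 0 by DESeq2. The log2 fold change was -2.27 for miR-34b-3p (SE 0.34, edgeR adjusted p = 0.000802) and -1.95 for miR-34c-5p (SE 0.27, edgeR adjusted p = 0.000581). The miR-34b-3p call was lost without serum RB18 (adjusted p = 0.0110) and without serum RB20 (adjusted p = 0.0103) in edgeR. miR-34b-5p (-2.24, SE 0.54) passed narrowly, with an edgeR adjusted p of 0.00983, although its level was low in 2i and not in R2i. Blocking on the cell line gave an adjusted p of 0.0132, and over all alternatives the range was 0.000191 to 0.0514. It was lost in edgeR without serum RB18 (0.0496), serum RB20 (0.0514), 2i RB18 (0.0336), 2i RB20 (0.0340) or R2i RB20 (0.0186). At an adjusted p under 0.05 in edgeR with no fold limit, 5 of the 6 members were lower, again with miR-34c-3p among them, and 26.8% of all tested miRNAs. miR-34c-3p (-2.07, edgeR adjusted p = 0.0262) passed the call without 2i RB18 (-3.15, adjusted p = 0.00475) and with no filter on low counts (-2.03, adjusted p = 0.000621), and it was -1.54 without 2i RB20 (adjusted p = 0.0415).

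Whether the ground-state difference depended on the cell line was tested as an interaction, in which serum has 1 library per line. This fit pooled the 2i and R2i libraries of a line as replicates, so differences between these media counted as error. edgeR called 0 of the 571 miRNAs, and 4.73% had an unadjusted p under 0.05, with 0 of the 6 members among them. The difference between lines for miR-34c-5p was -1.05 on the log2 scale, with a 95% interval from -4.22 to 2.12. A difference of several fold in either direction was thus not detectable in this pooled fit. Medium by medium, the log2 change of miR-34c-5p against serum was -2.27 (RB18) and -3.26 (RB20) in 2i. In R2i it was -0.62 and -1.69. For miR-449a-5p, the pooled log2 ground-state difference was 1.57 in RB18 and -0.49 in RB20. Its interaction was -2.06 (95% interval -5.33 to 1.20). Against serum, its log2 change in 2i was 0.69 in RB18 and -1.43 in RB20, and in R2i 2.17 and 0.07.

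Ratios within a library do not depend on its scaling. For every 100 counts of miR-34a-5p there were 31.2 (RB18) and 50.4 (RB20) counts of miR-34c-5p in serum versus 12.0 and 9.01 in 2i and 26.0 and 18.3 in R2i. The 3 media did not overlap, with 2i lowest. By contrast, miR-34b-3p stood at 4.70 and 3.29 per 100 counts of miR-34c-5p in serum versus 3.19 and 3.89 in 2i and 3.42 and 2.45 in R2i, ranges that overlapped for every pair of media. The proportion of miR-34b-3p to miR-34c-5p thus did not separate the media, while that of miR-34c-5p to miR-34a-5p was lowest in 2i. No test was run on these ratios.

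The 5p arm supplied most counts of miR-34a and miR-34c and the minority of those of miR-34b. For miR-34a, the 5p share was 98.2% and 98.7% in serum versus 97.2% and 97.4% in 2i and 97.7% and 98.0% in R2i. Counts of the 3p arm, miR-34a-3p, ranged from 22.7 to 48.0 CPM and overlapped between all media. For miR-34c, the 5p share ranged from 97.8% to 99.7% over the 6 libraries. For miR-34b, it was 23.2% (95% Wilson interval 15.4% to 33.4%) and 24.4% (16.6% to 34.5%) in serum. In R2i it was 44.1% (28.9% to 60.5%) and 39.5% (26.4% to 54.4%), and in 2i 9.09% (1.62% to 37.7%) of 11 counts and 13.3% (3.74% to 37.9%) of 15 counts. The point values of the 3 media did not overlap, whereas their counting intervals did.

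**Figure D4:**
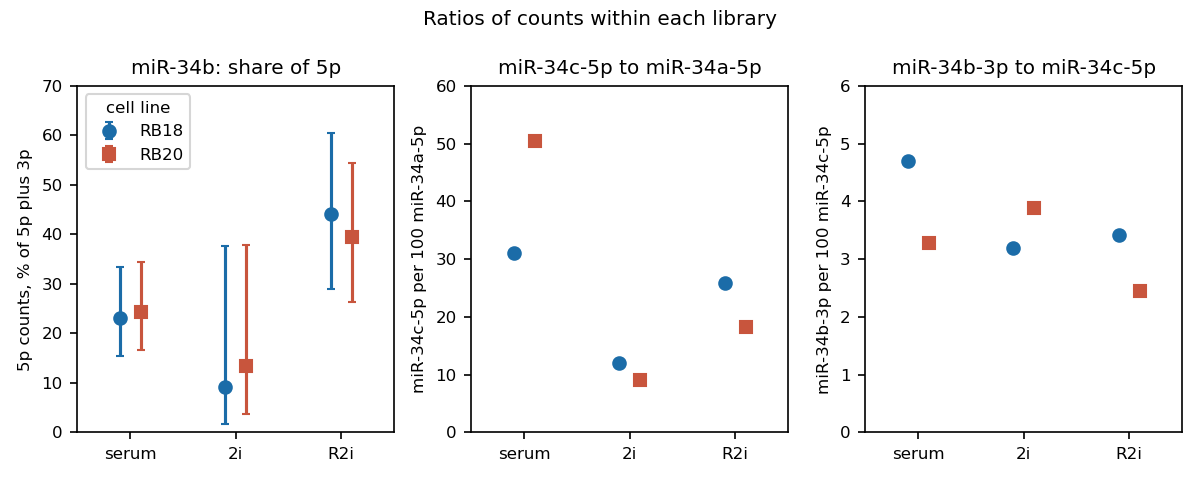
Left, 5p share of miR-34b counts in percent with 95% Wilson intervals. Middle and right, counts of miR-34c-5p per 100 of miR-34a-5p and of miR-34b-3p per 100 of miR-34c-5p, by medium and line (circles RB18, squares RB20). The middle ratio is lowest in 2i, at 12.0 and 9.01, and the right ratio stays between 2.45 and 4.70 in all libraries.

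Of the other mature products of these genes, 5 were in the table and 2 passed the filter, miR-34a-3p and miR-449c-5p. edgeR called 0 of the 2 in 2i or R2i against serum or in 2i against R2i, with 0 at an unadjusted p under 0.05 and 0 by DESeq2. miR-449c-5p, from the miR-449 genes in Cdc20b, stood at 16.6 and 43.2 CPM in serum versus 28.7 and 10.4 in 2i and 34.6 and 27.6 in R2i. It was lower in serum than in 2i or R2i in RB18 and higher in RB20, and for 1 count of miR-449a-5p it had between 0.783 and 2.26 counts. miR-449a-3p had at most 4 counts in a library, and miR-449b and miR-449c-3p had none in any, which leaves room for up to 3.54 CPM (upper 95% Poisson limit) in the smallest library.

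A further list held 11 miRNAs linked to p53 activation, whose transcription or processing p53 is known to favour, and 10 of them were tested. In 2i against serum, edgeR called 2 of the 10 higher and 1 lower, near the shares of 16.8% and 17.3% over all 571 miRNAs. Those higher were miR-15a-5p, from the miR-15/16 family that restrains cell cycle genes (log2 fold change 1.52, edgeR adjusted p = 0.00169), and miR-107-3p (1.01, edgeR adjusted p = 0.00952). miR-205-5p, an epithelial miRNA, was lower (-1.75, edgeR adjusted p = 0.00701). The count depended on the method, since DESeq2 called 3 higher, adding miR-143-3p, and 1 lower. At an unadjusted p under 0.05 in edgeR, 4 were higher and 2 lower, beside 163 and 166 of all 571 tested miRNAs. In R2i, miR-15a-5p was higher (1.08, edgeR adjusted p = 0.00945) and 0 were lower, beside 15.1% of all miRNAs called higher and 15.6% lower. At an unadjusted p under 0.05, 2 were lower, against 26.8% of all tested miRNAs, and DESeq2 called 0 lower. In 2i against R2i, 0 were called by edgeR or DESeq2. At an unadjusted p under 0.05, 1 was higher and 0 lower, beside 43 and 61 of all 571 tested miRNAs. In the ground-state comparison miR-15a-5p was higher and miR-205-5p lower, 1 of the 10 in each direction beside 17.0% and 20.0% of all miRNAs. miR-16-5p, the most abundant of the list, ranged from 24572 to 44567 CPM and was not called.

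Several of these calls depended on the line or on 1 library. Blocking on the cell line gave an edgeR adjusted p in 2i of 0.0156 for miR-107-3p and 0.0190 for miR-205-5p, and for miR-15a-5p in R2i it was 0.0201. In 2i, miR-15a-5p was lost without 2i RB20 (adjusted p = 0.0131). miR-107-3p was lost without any library but serum RB20 (adjusted p from 0.0145 to 0.0537), and miR-205-5p without serum RB20, 2i RB20 or either R2i library (adjusted p from 0.0108 to 0.0549). In R2i, miR-15a-5p was lost without any library but serum RB18 (adjusted p from 0.0183 to 0.0634). In the ground-state comparison, the blocked adjusted p of miR-205-5p was 0.0202, and without serum RB20 it was 0.0845, without 2i RB20 0.0255, without R2i RB18 0.0283 and without R2i RB20 0.0134. All these p-values are from edgeR.

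Of 5 miRNAs reported to repress p53, all were tested. In 2i against serum, edgeR called 0, with 2 lower (29.1% of all tested miRNAs) and 0 higher at an unadjusted p under 0.05, and DESeq2 called 1 lower, miR-125a-5p. miR-125a-5p was lower in R2i (log2 fold change -2.05, edgeR adjusted p = 0.00624) and in the ground-state comparison (-1.83, edgeR adjusted p = 0.00296). As 1 of 5 in each, it stands beside 15.6% and 20.0% of all tested miRNAs called lower, and nothing is read from these counts. It reached 3123 and 1348 CPM in serum versus 669 and 776 in 2i and 403 and 703 in R2i. Blocked on the cell line, its adjusted p was 0.0201 in R2i and 0.0116 in the ground-state comparison (edgeR). Without serum RB18 its log2 fold change was -1.39 in R2i (adjusted p = 0.0281) and -1.17 in the ground state (adjusted p = 0.0272), and without R2i RB18 the adjusted p was 0.0518 and 0.0125 (edgeR). Without R2i RB20 the R2i log2 fold change was -2.64. In 2i against R2i, 0 of the 5 were called by edgeR or DESeq2 or reached an unadjusted p under 0.05. miR-25-3p was the most abundant of the list, at 7938 to 11847 CPM.

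Markers of other cell types were measured in the same libraries. Of 3 muscle miRNAs on the list, 2 were tested, and both miR-1a-3p and miR-133a-3p were called lower in 2i and in R2i, beside 17.3% and 15.6% of all tested miRNAs. Both had at least 10 counts in serum only, and so entered the test through the medium where they are high, with miR-1a-3p at 0 in both 2i libraries. These calls are a description. The list summed to 83.1 and 41.9 CPM in serum versus 0.486 and 0.297 in 2i and 8.64 and 3.90 in R2i, the same order of media as for miR-34c-5p and miR-34b-3p. miR-133a-3p was the most abundant of them in serum RB18, at 53.3 CPM, and miR-1a-3p in serum RB20, at 24.5 CPM, and miR-206-3p was at 0 in every library but serum RB20. Muscle miRNAs outside the list, named after their values were seen, lay on both sides: edgeR called miR-208b-3p lower in 2i and R2i (TMM-scaled CPM of 90.3 and 42.6 in serum, 7.29 and 0.916 in 2i, 4.29 and 3.43 in R2i) and miR-499-5p higher (15.9 and 16.4 in serum, 144 and 159 in 2i, 81.5 and 175 in R2i). miR-208b-3p entered the test through serum, where it is high, so its calls are a description. miR-499-5p was lowest in serum and did not share the order of the listed markers. Nothing is read from these picked miRNAs for muscle miRNAs in general. The part of muscle-like cells in the fall of the miR-34b/c products was not tested. The 3 neuron miRNAs summed to 801 and 501 CPM in serum versus 526 and 423 in 2i and 518 and 487 in R2i, led by miR-124-3p. For them edgeR called 0 in 2i or R2i against serum. In 2i, 1 was lower at an unadjusted p under 0.05, beside 29.1% of all tested miRNAs, and 1 was lower by DESeq2. The 4 fibroblast or smooth muscle miRNAs, of which miR-143-3p and miR-145a-5p are also on the p53 list, summed to 1487 and 1769 CPM in serum versus 3269 and 3458 in 2i and 2561 and 2284 in R2i, led by miR-143-3p, and edgeR called 0 (at an unadjusted p under 0.05, 2 higher in 2i and 1 in R2i, with the same numbers by DESeq2). The 5 blood miRNAs summed to 3360 and 2935 CPM in serum versus 5190 and 2024 in 2i and 1662 and 736 in R2i, with miR-223-3p at 0 in all 6 libraries. Of the 4 tested, edgeR called miR-451a higher in 2i and in R2i and miR-142a-5p lower in R2i, beside 16.8% and 15.1% of all miRNAs called higher and 15.6% lower in R2i. miR-451a had 0 and 3 counts in serum and 22 to 66 elsewhere, so it entered the test through the media where it is high, and its calls are a description. The hepatocyte miRNA miR-122-5p did not exceed 3.12 CPM.

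For each member, the miRNAs outside the family with the most similar profile were ranked by Pearson correlation of log2(TMM-scaled CPM + 1) over the 6 libraries, as a description. The values rest on 6 points in 3 media and were searched among 565 candidates. miR-34c-5p was most similar to miR-7b-5p (r = 0.984), miR-6240 (0.983) and miR-3063-3p (0.980), and 8 miRNAs exceeded 0.95. miR-34b-3p was most similar to miR-1a-3p (0.989), miR-466o-5p (0.985) and miR-466f-5p (0.982), with 15 miRNAs above 0.95. miR-34b-5p was closest to miR-129-2-3p (0.967), miR-1198-5p (0.943) and miR-6236 (0.941), with 1 above 0.95. For miR-34c-3p they were miR-335-3p (0.978), miR-181b-5p (0.970) and miR-297c-5p (0.963), with 5 above 0.95. On the deposited log2 values, miR-466o-5p (0.985) came first for miR-34b-3p and miR-181b-5p (0.976) for miR-34c-3p.

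The other members had different neighbours. miR-34a-5p was most similar to miR-193b-3p (r = 0.979), miR-7224-3p (0.961) and miR-195a-5p (0.960), with 5 miRNAs above 0.95. miR-449a-5p was most similar to miR-130a-5p (0.982), the 1 miRNA above 0.95, ahead of miR-302a-5p (0.905) and miR-15b-3p (0.903). Among the members themselves, r was 0.970 between miR-34b-3p and miR-34c-5p, 0.944 between miR-34a-5p and miR-34c-5p, and 0.386 between miR-449a-5p and miR-34c-5p. miR-449a-5p and miR-449c-5p, neighbours in Cdc20b, had r = 0.769. These values share the libraries and the differences between media, and are given without a test.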

How the data were processed

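Small RNA of 6 libraries was analysed from 2 deposited tables. The first holds counts, which the authors deposited as whole numbers for 1907 mature miRNAs without normalization. Per the submitters' processing notes, FastQC 0.11.5, cutadapt 1.3, Bowtie 1.1.2 and featureCounts 1.5 were used, with genome build mm10. The second holds log2 values that the authors deposited for 1233 miRNAs. They equal log2(count / size factor + 1), with median-of-ratios size factors, within 0.00500.

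Counts were tested in R 4.3.3 with edgeR 4.0.16 after TMM scaling. filterByExpr (count 10, total 15) set the filter, and the quasi-likelihood model had a mean for each medium. Standard errors were derived from each log2 fold change and its F statistic. The common biological coefficient of variation was 24.6%. Library totals (1041858 to 3593356) set the counting precision. Poisson, binomial and Wilson intervals are at 95%.

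The libraries were paired by cell line, as named in the labels. The RB20 minus RB18 differences correlated at 0.210 between serum and 2i, -0.128 between serum and R2i, and 0.248 between 2i and R2i (571 miRNAs).

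Alternatives were DESeq2 1.42.0, library totals, no filter, blocking on the cell line, limma 3.58.1 (deposited log2 values), a limit of 0.05 with no fold, fewer libraries, and removal of the 5 most abundant miRNAs. The text names every member, every other product of the same genes in the table, the miRNAs of both p53 lists that were called or most abundant, and the 3 miRNAs most similar to each member. The members and lists, which include markers of ESCs, neurons, muscle, blood, hepatocytes and fibroblasts or smooth muscle, were chosen with earlier results of these data known. Sequences are from RefSeq (GRCm38.p6) and positions from RefSeq and GENCODE M21. Tables and plots were made with matplotlib 3.10.9, scipy 1.17.1, numpy 2.4.6 and pandas 2.3.3 under Python 3.11.15.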

Additional observations from a re-analysis of the deposited data

Results flagged for a closer look

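In some comparisons the cell lines moved in opposite directions. These differences between lines rest on 1 library per medium and line and were not tested within a medium. They are given as the log2 change in RB20 minus that in RB18, on TMM-scaled CPM. For miR-449a-5p in 2i against serum, the value was -2.11, from 0.69 in RB18 and -1.43 in RB20. For miR-449c-5p it was -3.02 in 2i against serum (0.85 in RB18 and -2.17 in RB20) and -1.72 in R2i against serum (0.96 and -0.76). The interaction fit over the ground state pooled 2i and R2i, so the difference between these media counted as error. It gave -2.20 (95% interval -4.55 to 0.15) for miR-449c-5p and -2.06 (95% interval -5.33 to 1.20) for miR-449a-5p. For miR-34b-5p in R2i against serum, the value was -1.40 (0.31 in RB18 and -1.10 in RB20). For miR-34a-3p it was 0.49 in 2i against serum (-0.25 and 0.24) and 0.42 in R2i against serum (-0.01 and 0.40). Of the 571 tested miRNAs, 15.9% moved in opposite directions in the lines in 2i against serum and 22.1% in R2i against serum. The RB18 library was the smaller one in every medium, so line and depth cannot be told apart.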

How the results depend on the processing

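Over all alternative fits, 326 of 330 log2 fold changes of the members kept their direction. Of these 326, 297 kept their side of the call limits, 17 lost a call and 12 gained one. The calls of miR-34c-5p in 2i against serum and in the ground state against serum held in every alternative fit, with adjusted p up to 0.00417 and 0.00875. The 4 values that changed sign did so with 1 library left out: miR-449a-5p in 2i without serum RB20 (leave-one-out range -0.91 to 0.29) and for the ground state without serum RB18 (-0.17 to 1.02), miR-34b-5p in R2i without R2i RB20 (-1.11 to 0.30), and miR-34c-3p in 2i against R2i without 2i RB20 (-3.25 to 0.026). None of these values was called, and the cause was not tested.

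The number of members called lower in 2i was 5 with the limit of 0.05 and no fold limit, 4 without a filter, and 1 to 3 when each library was left out in turn. In R2i it was 1 with DESeq2, 2 without a filter, 2 with the limit of 0.05, 1 with the cell line as a block together with library totals, and 0 to 1 with each library left out. In 2i against R2i it was 1 with DESeq2 and 2 without a filter. In the ground state it was 5 with the limit of 0.05, 4 without a filter, 2 with library totals, DESeq2, the block, limma or without the 5 most abundant miRNAs, and 1 to 3 with each library left out. The number of miRNAs called in 2i against R2i, 2 in the test as reported, was 14 with DESeq2, 25 without a filter, 0 with the cell line as a replicate block, 0 with only the libraries compared, 5 with the block and library totals, and 0 to 2 with each library left out. The number called in R2i against serum was 112 to 162 with each library left out, against 175. A library left alone in its medium is assumed to vary like the other groups.

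For the ground state, miR-34b-5p was not called with library totals (adjusted p = 0.0130), DESeq2 (0.0139), the replicate block (0.0132), limma (0.0172) or without the 5 most abundant miRNAs (0.0106). Among the members, the block changed no other call. Because the correlation of line differences between serum and R2i was -0.128, the pairing was also reversed, and blocking after swapping the R2i lines called 177 miRNAs in 2i, 164 for R2i and 199 for the ground state against serum, and 2 in 2i against R2i. That fit, the block with library totals, and the alternatives for miRNAs outside the family were chosen after seeing the data. Library totals in place of TMM moved the median of all miRNAs in R2i against serum by 0.11 on the log2 scale. Fitting only the libraries compared was not run for the ground state, which uses all 6. At 1 to 21 counts a library, miR-34b-5p and miR-34c-3p are limited by depth.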
